A study of Homo sapiens with 4 samples.

Results

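Expression was compared between 2 Cre-treated derivatives of PC-3, which by their labels differ in telomere length and share basal hTERT. The line LhTERTL/cre+ has long telomeres and basal hTERT, and the line mock/cre+ has short telomeres and basal hTERT. The other 2 arrays of the series hold LhTERTL, with long telomeres and overexpressed hTERT, and mock, with short telomeres and basal hTERT. All 4 lines derive from PC-3, a widely used androgen-independent line grown from a bone metastasis of prostate cancer, and each was hybridised to 1 Affymetrix Human Genome U133 Plus 2.0 array. The labels' treatment field names no treatment for any array, so the cre+ of the names is the only record of Cre, a recombinase that cuts out DNA between its target sites. By the design text, the telomere-elongated cells were measured with and without the exogenous hTERT. The sources used here do not give whether a line is 1 clone. The difference LhTERTL/cre+ minus mock/cre+ was taken for all 54613 probe sets that are not Affymetrix controls, of 54675 on the array. Averaging the probe sets with 1 gene symbol gave 19775 genes.

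Chromosomes end in telomeres, DNA repeats under a protein cap, and telomerase lengthens them with its reverse transcriptase subunit hTERT, the product of TERT. Shelterin proteins coat the repeats and set how far telomerase can extend them. In human cells, genes lying near a telomere can be expressed less as that telomere grows, which is known as telomere position effect. Comparing a long-telomere and a short-telomere line at the same basal hTERT sets aside hTERT overexpression at the time of measurement. Earlier exogenous hTERT in the long-telomere line, and its removal, cannot be told apart from telomere length.

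The deposited values are log2 values in which the median of each probe set over the 4 arrays is 0. A value therefore gives an array's distance from that median and no level of expression, and values of different genes cannot be ranked as levels. A difference of 1 on this scale is 2-fold. With 1 array a side there is no replicate check: no p-value was computed, and telomere length, line, culture and array cannot be told apart. The RNA came from whole dishes, so fewer cells with a transcript and less of it per cell cannot be told apart.

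Of the genes measured, 78 (0.394% of 19775) were at least 2-fold higher in LhTERTL/cre+ than in mock/cre+ and 233 (1.18%) were at least 2-fold lower. At 1.5-fold, 371 genes (1.88%) were higher and 702 (3.55%) lower, and at 4-fold 4 (0.0202%) were higher and 35 (0.177%) lower. By any amount, 10485 genes were higher and 9237 lower. These numbers are the background for the list counts below. By probe sets, 231 (0.423% of 54613) were at least 2-fold higher and 640 (1.17%) at least 2-fold lower. The highest 15 genes included DDIT3, DNAJB9, HSPA5, SDF2L1, HYOU1 and CHAC1, which endoplasmic reticulum stress is known to induce. At the other end stood CSTA, RAI2, ZIC2, CA2 and CYP1B1, which were at least 4-fold lower. Genes of DNA replication and mitosis, interferon-stimulated genes and cytosolic heat shock genes were mostly lower by smaller amounts. Genes of telomerase, shelterin and telomere replication differed little.

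The promoters of 6 genes from those groups are printed because their letters hold the element by which each group is known to be controlled. HSPA5, CRELD2 and HSP90B1 code for endoplasmic reticulum proteins, and each window holds the endoplasmic reticulum stress element, read by the stress factors ATF6 and XBP1. HERC5, IFIT1 and IFI44 are interferon-stimulated genes, and each window holds the interferon-stimulated response element. Sequences are from RefSeq (GRCh38.p14), run 5′ to 3′ on the gene's strand from upstream of its start to 50 bases after it, and carry matches on either strand in capitals.
HSPA5: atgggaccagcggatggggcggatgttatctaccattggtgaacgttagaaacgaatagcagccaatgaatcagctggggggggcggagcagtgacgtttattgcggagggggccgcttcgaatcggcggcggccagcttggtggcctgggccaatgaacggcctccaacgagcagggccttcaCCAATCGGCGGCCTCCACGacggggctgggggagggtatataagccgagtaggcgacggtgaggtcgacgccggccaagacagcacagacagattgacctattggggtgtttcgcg
CRELD2: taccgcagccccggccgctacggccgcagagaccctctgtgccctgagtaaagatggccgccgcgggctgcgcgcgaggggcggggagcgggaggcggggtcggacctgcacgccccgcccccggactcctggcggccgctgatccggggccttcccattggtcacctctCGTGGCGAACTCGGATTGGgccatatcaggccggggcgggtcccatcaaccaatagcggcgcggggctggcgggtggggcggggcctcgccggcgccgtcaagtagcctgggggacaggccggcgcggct
HSP90B1: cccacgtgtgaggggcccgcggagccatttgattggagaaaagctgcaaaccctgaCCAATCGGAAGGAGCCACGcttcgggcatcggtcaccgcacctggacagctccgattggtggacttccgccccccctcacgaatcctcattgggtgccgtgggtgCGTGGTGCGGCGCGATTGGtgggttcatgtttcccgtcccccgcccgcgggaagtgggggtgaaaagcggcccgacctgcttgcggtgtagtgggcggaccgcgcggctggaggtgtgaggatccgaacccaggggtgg
HERC5: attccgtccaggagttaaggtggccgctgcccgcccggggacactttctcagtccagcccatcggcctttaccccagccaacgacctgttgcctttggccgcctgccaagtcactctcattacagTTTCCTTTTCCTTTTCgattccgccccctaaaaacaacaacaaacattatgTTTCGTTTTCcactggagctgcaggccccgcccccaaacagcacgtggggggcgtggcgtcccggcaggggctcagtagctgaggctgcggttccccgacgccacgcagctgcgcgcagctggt
IFIT1: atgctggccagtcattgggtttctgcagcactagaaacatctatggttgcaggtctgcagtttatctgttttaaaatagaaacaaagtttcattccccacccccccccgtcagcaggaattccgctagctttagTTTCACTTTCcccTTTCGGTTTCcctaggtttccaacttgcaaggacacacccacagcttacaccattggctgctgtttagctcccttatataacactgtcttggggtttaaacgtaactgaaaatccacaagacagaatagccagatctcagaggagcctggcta
IFI44: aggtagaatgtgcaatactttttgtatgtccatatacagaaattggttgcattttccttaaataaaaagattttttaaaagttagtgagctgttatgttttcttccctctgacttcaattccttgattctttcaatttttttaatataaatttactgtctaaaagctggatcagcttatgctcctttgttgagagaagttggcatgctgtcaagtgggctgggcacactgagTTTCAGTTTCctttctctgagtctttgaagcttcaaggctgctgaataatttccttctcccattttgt
The windows lie at chr9:125241294-125241593 (minus strand), chr22:49918384-49918683 (plus strand), chr12:103930160-103930459 (plus strand), chr4:88456869-88457168 (plus strand), chr10:89392373-89392672 (plus strand) and chr1:78649539-78649838 (plus strand). The stress element was searched as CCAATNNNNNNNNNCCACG and was found in 7 of 31 promoters of unfolded protein response genes (22.6%), against 22 of 27305 promoters in the table (0.0806%). Of the 21 such promoters whose gene was at least 1.5-fold higher, 5 held it, and of the 10 not 1.5-fold apart, 2 did. The interferon element was searched as GAAANNGAAA and was found in 30 of 48 promoters of interferon-stimulated genes (62.5%), against 996 of 27305 (3.65%). It stood in 10 of the 12 promoters whose gene was at least 1.5-fold lower and in 20 of the 35 whose gene was not 1.5-fold apart. Over measured genes of any list, 453 of 15384 promoters held the interferon element. So did 10 of 182 of genes at least 2-fold lower, which include listed interferon-stimulated genes, and 0 of 70 at least 2-fold higher. The stress element stood in 16 of 15384, 0 of 182 and 4 of 70 of these, in that order. Matches of the same motif that overlap are merged in the capitals, and neither motif was found in the windows of the other group. A match describes the letters only.

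TERT was examined first, since the long-telomere line is labelled as having basal hTERT. Of its 2 probe sets, the first by name stood at -0.16 in LhTERTL/cre+, against -0.12 in mock/cre+, with 3.54 in LhTERTL and 0.12 in mock. Only the array labelled as overexpressing hTERT was high. The other probe set stood at 0.10 in LhTERTL/cre+, against -0.06 in mock/cre+, with -0.66 in LhTERTL and 0.06 in mock. The differences of -0.03 and 0.16 are small in both, so TERT cannot check which of them has long telomeres. Differences of the 18 hybridisation spike-in probe sets lay between -0.26 and -0.03, and those of the 24 poly-A spike-in probe sets between -0.47 and 0.04. The median difference over all probe sets was 0.01, their SD was 0.335, and the SD among probe sets of one gene, pooled over genes, was 0.269. RNA quality signs were close: the difference between 3′ and 5′ control probe sets was higher by 0.13 for ACTB and lower by 0.01 for GAPDH.

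In most genes at least 2-fold apart, mock/cre+ was the lowest or the highest of the 4 arrays. The genes were chosen by the difference between LhTERTL/cre+ and mock/cre+, which by itself favours each of them as an extreme. The counts therefore set these arrays beside each other and give no share free of that choice. Among the 78 higher genes, mock/cre+ was the lowest array in 61 (78.2%) and LhTERTL/cre+ the highest in 30, with both true of 15 and only the first of 46. Among the 233 lower genes, mock/cre+ was the highest in 153 (65.7%) and LhTERTL/cre+ the lowest in 90 (38.6%), with both true of 47 and only the first of 106 (45.5%). Over all probe sets LhTERTL lay farthest out: 156 were at least 2-fold from their row's median in LhTERTL/cre+, against 513 in mock/cre+, with 1123 in LhTERTL and 230 in mock. LhTERTL/cre+ lay closer to mock than mock/cre+ did in 65 of the 78 and in 222 of the 233 (95.3%). Against the untreated mock array, 329 genes (1.66%) were at least 1.5-fold higher and 146 (0.738%) lower in LhTERTL/cre+, while 1177 (5.95%) were higher and 655 (3.31%) lower in mock/cre+. Both comparisons share the mock array, so they are given side by side only. With the mean of mock/cre+ and mock in place of mock/cre+, 21 genes were at least 2-fold higher and 49 lower. Whether the line or the single hybridisation sets mock/cre+ apart cannot be told apart.

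The highest gene was DDIT3, which codes for the stress transcription factor CHOP. It stood at 0.21 in LhTERTL/cre+, against -2.36 in mock/cre+, with -0.21 in LhTERTL and 0.32 in mock, a difference of 2.57 or 5.92-fold. The low value of mock/cre+ stands alone, with the other 3 arrays within 1 unit of each other. BHLHA15, a transcription factor of secretory cells also known as MIST1, stood at -0.40 in LhTERTL/cre+, against -2.76 in mock/cre+, with 0.71 in LhTERTL and 0.40 in mock, a difference of 2.37. DNAJB9, a co-chaperone of the endoplasmic reticulum, stood at -0.11 in LhTERTL/cre+, against -2.30 in mock/cre+, with 0.33 in LhTERTL and 0.11 in mock, and its probe sets differed by 2.02 to 2.33. Again only mock/cre+ was low. CRIP1, a small LIM-domain protein, was of another kind: it stood at 1.42 in LhTERTL/cre+, against -0.47 in mock/cre+, with -2.85 in LhTERTL and 0.47 in mock, so that the lowest array was LhTERTL and the highest LhTERTL/cre+. CLIC3, of the chloride intracellular channel family, differed by 1.79 with mock/cre+ alone low at -1.88. The long noncoding RNAs OLMALINC, DLGAP1-AS2 and LINC01133 differed by 1.72, 1.54 and 1.59, and both probe sets of LINC01133 were higher, by 0.61 and 2.58. C17orf100 and TMEM47, a membrane protein of cell junctions, complete the highest 15 with differences of 1.54 and 1.51. TMEM47 was as high in mock as in LhTERTL/cre+.

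**Figure D1:**
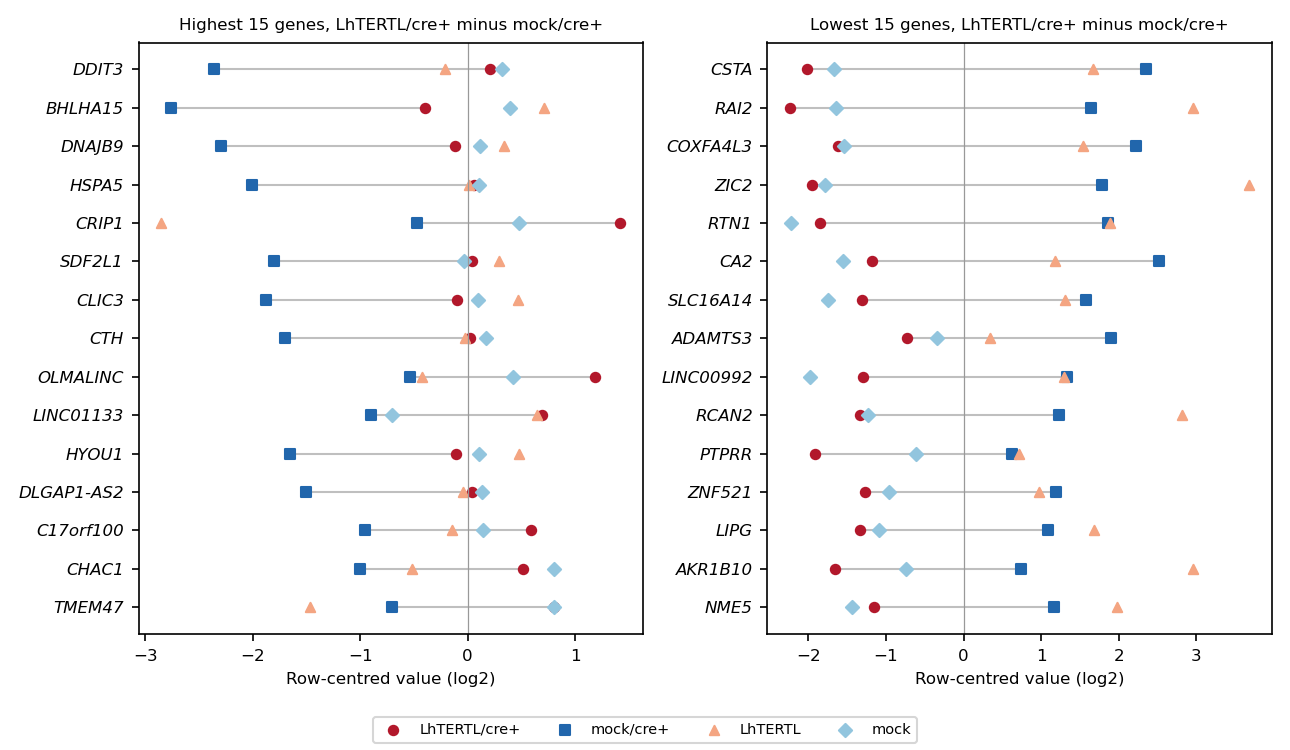
Row-centred log2 values (horizontal axis) of the 15 genes highest and the 15 lowest in LhTERTL/cre+ minus mock/cre+, with 1 point per array; the grey line joins LhTERTL/cre+ and mock/cre+. For DDIT3, DNAJB9 and HSPA5 the mock/cre+ point lies alone at the low end, below -2, and for CSTA, ZIC2 and RAI2 the mock/cre+ and LhTERTL points lie together at the high end, above 1.

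The unfolded protein response is the program by which cells enlarge the folding and degradation capacity of the endoplasmic reticulum, through the sensors IRE1, PERK and ATF6. Of 36 measured genes of this list, 35 were higher in LhTERTL/cre+, 23 of them at least 1.5-fold and 13 at least 2-fold, and 0 were 1.5-fold lower. The list's median difference was 0.80, against 0.01 over all genes. Of all 19775 genes 10485 were higher, 1.88% at least 1.5-fold and 0.394% at least 2-fold. HSPA5 codes for BiP, the main chaperone of the endoplasmic reticulum and a brake on its 3 sensors. It stood at 0.06 in LhTERTL/cre+, against -2.01 in mock/cre+, with 0.01 in LhTERTL and 0.10 in mock, a difference of 2.07 or 4.20-fold, and its probe sets differed by 1.51 to 2.63. The other 3 arrays lay within 0.1 of each other. SDF2L1, a partner of BiP complexes, stood at 0.04 in LhTERTL/cre+, against -1.80 in mock/cre+, with 0.29 in LhTERTL and -0.04 in mock, a difference of 1.84. HYOU1, a large chaperone that exchanges nucleotide on BiP, stood at -0.11 in LhTERTL/cre+, against -1.66 in mock/cre+, with 0.48 in LhTERTL and 0.11 in mock, a difference of 1.55. MANF, a secreted protein retained by BiP, was 2.84-fold higher, and SEL1L, the scaffold of the ubiquitin ligase that degrades misfolded proteins, differed by 1.34. Further members were named after their values were seen. The co-chaperones DNAJC3 and DNAJB11 differed by 1.31 and 1.27, and the disulfide isomerase PDIA4 was 2.46-fold higher. CRELD2, the second of the printed promoters, differed by 1.11, and HSP90B1, the chaperone GRP94, by 0.95. Genes of degradation were higher too, with EDEM1 at 1.10 and DERL2 at 1.06. XBP1, the transcription factor spliced by IRE1, differed by 0.64, with its probe sets between 0.16 and 1.11.

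In 35 of the 36 genes mock/cre+ was the outermost array, meaning the lowest or the highest of the 4. Every gene has both a lowest and a highest array, so some such count arises for any array. In lists with medians near 0, mock/cre+ was outermost in 6 of 14 integrins and 9 of 15 housekeeping genes. It was so in 21 of 29 telomerase, shelterin and telomere replication genes. The share over all genes was not counted, here or for the lists below. Set against mock, the list's median was -0.12 in LhTERTL/cre+ and -1.03 in mock/cre+. The low array was thus the short-telomere Cre-treated one, and LhTERTL/cre+ stood near mock. In LhTERTL minus mock, a pair that shares no array with the comparison, the list's median was 0.40.

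ATF4 and CHOP are transcription factors of the amino acid and PERK branches of the stress response, and their targets make and import amino acids. Of 36 measured genes on this list, 32 were higher in LhTERTL/cre+, 19 at least 1.5-fold and 6 at least 2-fold, and the median difference was 0.62. The shares of all genes at these folds were 1.88% and 0.394%. CTH, which makes cysteine from cystathionine, stood at 0.02 in LhTERTL/cre+, against -1.70 in mock/cre+, with -0.02 in LhTERTL and 0.17 in mock, a difference of 1.72. CHAC1, which degrades glutathione, stood at 0.51 in LhTERTL/cre+, against -1.01 in mock/cre+, with -0.51 in LhTERTL and 0.81 in mock, a difference of 1.52. SESN2, a leucine sensor, and SLC3A2, the heavy chain of amino acid exchangers, differed by 1.35 and 1.17. TRIB3, a pseudokinase that CHOP induces, differed by 1.14. ATF4 itself differed by 0.47, and ASNS, asparagine synthetase and a well-known ATF4 target, by 0.18, both named after their values were seen and both under 1.5-fold. VLDLR, a lipoprotein receptor also named after its value was seen, was the one member at least 1.5-fold lower: it stood at -0.51 in LhTERTL/cre+, against 0.51 in mock/cre+, with 1.15 in LhTERTL and -0.80 in mock, a difference of -1.03. Against mock, the list's median was -0.17 in LhTERTL/cre+ and -0.79 in mock/cre+, and mock/cre+ was outermost in 32 of the 36. In LhTERTL minus mock the list's median was 0.02.

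**Figure D2:**
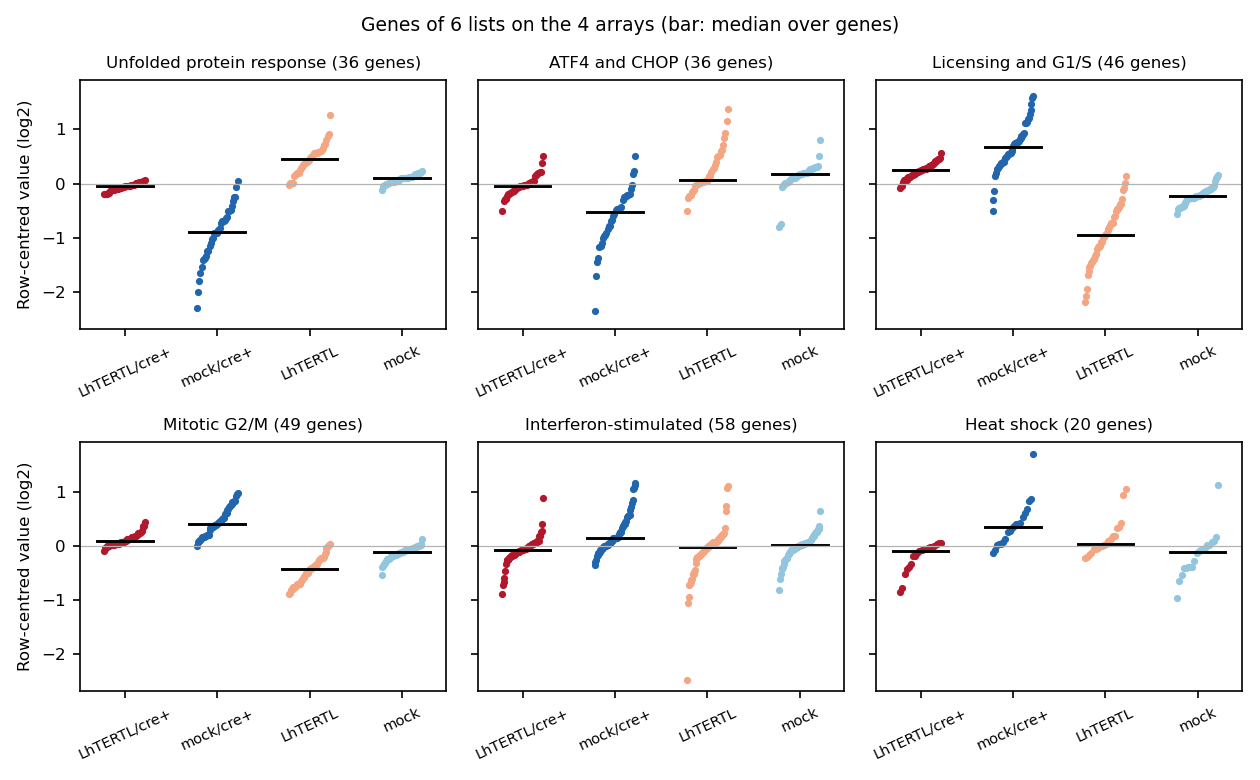
Row-centred log2 values (vertical axis) of the genes of 6 lists on the 4 arrays, with 1 point per gene and a bar at the median over genes. The bar of mock/cre+ is the lowest of the 4 for the unfolded protein response (-0.89) and ATF4 and CHOP lists (-0.52) and the highest for the other 4 lists, from 0.14 for interferon-stimulated genes to 0.67 for licensing and G1/S genes.

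The lowest gene was CSTA, which codes for cystatin A, an inhibitor of cysteine proteases in epithelia. It stood at -2.02 in LhTERTL/cre+, against 2.35 in mock/cre+, with 1.67 in LhTERTL and -1.67 in mock, a difference of -4.37 or 20.7-fold lower. High values were shared by mock/cre+ and LhTERTL, and low ones by LhTERTL/cre+ and mock. RAI2, a retinoic acid-induced gene, stood at -2.23 in LhTERTL/cre+, against 1.64 in mock/cre+, with 2.96 in LhTERTL and -1.64 in mock, a difference of -3.87. ZIC2, a zinc finger factor of brain development, stood at -1.95 in LhTERTL/cre+, against 1.79 in mock/cre+, with 3.68 in LhTERTL and -1.79 in mock, a difference of -3.74. RTN1, a reticulon of neurons and neuroendocrine cells, stood at -1.85 in LhTERTL/cre+, against 1.86 in mock/cre+, with 1.89 in LhTERTL and -2.22 in mock, a difference of -3.71. In all 4 genes the split of the arrays crossed the telomere labels. CA2, a carbonic anhydrase, stood at -1.18 in LhTERTL/cre+, against 2.52 in mock/cre+, with 1.18 in LhTERTL and -1.55 in mock, a difference of -3.70, and COXFA4L3 differed by -3.85. ADAMTS3, a protease that trims procollagen, had a different spread, with mock/cre+ alone high: it stood at -0.73 in LhTERTL/cre+, against 1.90 in mock/cre+, with 0.34 in LhTERTL and -0.34 in mock, a difference of -2.63. SLC16A14, LINC00992, RCAN2, PTPRR, ZNF521, LIPG, AKR1B10 and NME5 complete the lowest 15, with differences between -2.89 and -2.32.

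That crossing was common among the lower genes. Of the 233 genes at least 2-fold lower in LhTERTL/cre+, 119 (51.1%) were at least 2-fold higher in LhTERTL than in mock, where 442 of all genes (2.24%) were, and 5 (2.15%) were at least 2-fold lower there, where 170 of all genes (0.86%) were. Over the 233 genes the median value was -0.54 in LhTERTL/cre+, against 0.89 in mock/cre+, with 0.45 in LhTERTL and -0.52 in mock. Of the 78 higher genes, 12 (15.4%) were at least 2-fold lower in LhTERTL than in mock, and 2 were at least 2-fold higher. Telomere length differs the same way in both pairs, and the pair without Cre differs in hTERT as well. The 7 genes at least 2-fold apart in the same direction in both pairs were WIPI1 and LINC01133, higher, and HSD17B2, S100A9, PLAT, SPARC and UHRF1, lower. WIPI1, a protein of early autophagosomes, stood at -0.22 in LhTERTL/cre+, against -1.37 in mock/cre+, with 1.39 in LhTERTL and 0.22 in mock, a difference of 1.15. HSD17B2, which oxidises active androgens and estrogens, stood at -0.13 in LhTERTL/cre+, against 1.67 in mock/cre+, with -1.18 in LhTERTL and 0.13 in mock, a difference of -1.80. PLAT, the tissue plasminogen activator, stood at -0.44 in LhTERTL/cre+, against 0.72 in mock/cre+, with -2.26 in LhTERTL and 0.44 in mock, a difference of -1.15. The long-telomere arrays lay on one side of the short-telomere arrays for HSD17B2, S100A9, PLAT and LINC01133, and overlapped with them for SPARC, UHRF1 and WIPI1. The choice of these 7 genes by both pairs favours such a separation. The share of all genes that separate so was not counted.

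**Figure D3:**
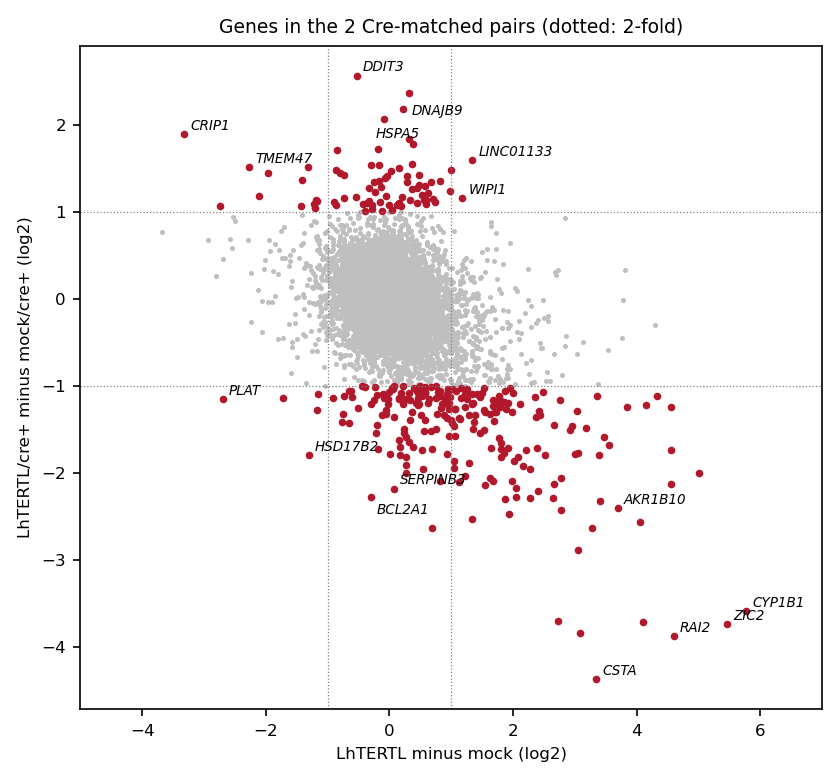
Log2 differences of all genes in LhTERTL/cre+ minus mock/cre+ (vertical axis) and in LhTERTL minus mock (horizontal axis), pairs that share no array; red points are at least 2-fold apart in the Cre-treated pair and dotted lines mark 2-fold. The lower right corner, with CSTA, RAI2, ZIC2 and CYP1B1, holds 119 genes, and the lower left corner, with PLAT and HSD17B2, holds 5.

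Enzymes of steroid and xenobiotic metabolism gave some of the largest differences, while the list's median was near 0. Of 29 measured genes, 3 were at least 1.5-fold lower and 0 higher, with a median of -0.05. CYP1B1, which oxidises estrogens and polycyclic compounds, stood at -1.79 in LhTERTL/cre+, against 1.79 in mock/cre+, with 3.78 in LhTERTL and -1.99 in mock, a difference of -3.59. Its 4 probe sets differed by 0.04, -3.95, -4.56 and -5.87, so the gene value averages probe sets that disagree. CYP2J2, an arachidonic acid epoxygenase, differed by -1.25. Among 21 aldo-keto reductases and aldehyde dehydrogenases, 4 were at least 1.5-fold lower and 0 higher, and the median was -0.10. AKR1B10, a reductase of retinal and aldehydes, stood at -1.66 in LhTERTL/cre+, against 0.74 in mock/cre+, with 2.95 in LhTERTL and -0.74 in mock, and ALDH1A1, which makes retinoic acid, stood at -0.72 in LhTERTL/cre+, against 0.53 in mock/cre+, with 4.02 in LhTERTL and -0.53 in mock. Both were highest by far in LhTERTL. AKR1C2 and AKR1C3, which reduce steroids, differed by -0.63 and -0.59. The probe sets of AKR1C2 disagreed: those whose names mark them as shared between transcripts differed by -1.22 and -1.155. Its only other probe set differed by 0.48, with -0.01 in LhTERTL, where the shared ones stood at 4.14 and 3.54. Of 31 NRF2-type antioxidant genes, 2 were at least 1.5-fold higher and 3 lower, with a median of 0.07, and the cystine carrier SLC7A11 was the highest at 0.98. PIR, an iron-binding nuclear protein, was the lowest of them at -0.97. Cholesterol and fatty acid synthesis genes numbered 2 higher and 2 lower of 28, with a median of -0.06.

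Origin licensing and G1/S genes, which load the replicative helicase and start DNA synthesis, were lower in 41 of 46 measured genes. Of them 16 were at least 1.5-fold lower, 3 at least 2-fold lower and 0 at least 1.5-fold higher, and the median difference was -0.46. Of all 19775 genes 9237 were lower, 3.55% at least 1.5-fold and 1.18% at least 2-fold. GINS1, a subunit of the active helicase, stood at 0.43 in LhTERTL/cre+, against 1.58 in mock/cre+, with -0.45 in LhTERTL and -0.43 in mock, a difference of -1.15. UHRF1, which brings DNA methyltransferase 1 to replicated DNA, stood at 0.37 in LhTERTL/cre+, against 1.46 in mock/cre+, with -1.53 in LhTERTL and -0.37 in mock, a difference of -1.10. MCM10, which activates the helicase, stood at 0.57 in LhTERTL/cre+, against 1.62 in mock/cre+, with -1.22 in LhTERTL and -0.57 in mock, a difference of -1.05. For all 3 genes mock/cre+ was highest and LhTERTL lowest. DTL, the substrate receptor that removes the licensing factor CDT1, was lower by just under 2-fold, and the repressor E2F8 differed by -0.96 and the helicase subunit MCM2 by -0.92. Mitotic G2/M genes were lower in 46 of 49, 8 of them at least 1.5-fold, with a median of -0.34 and 0 at 2-fold. CCNA2, cyclin A2, stood at -0.00 in LhTERTL/cre+, against 0.93 in mock/cre+, with -0.51 in LhTERTL and 0.00 in mock, a difference of -0.93. ASPM, a spindle pole protein, and KIF20A, a kinesin of cytokinesis, differed by -0.77 and -0.72. Mock/cre+ was the outermost array in 44 of the 46 licensing and in 46 of the 49 mitotic genes, with no share over all genes counted beside them. Against mock, the licensing list's median was 0.47 in LhTERTL/cre+ and 0.85 in mock/cre+, so both Cre-treated lines were above mock. For the mitotic list those medians were 0.22 in LhTERTL/cre+ and 0.53 in mock/cre+. In LhTERTL minus mock the medians were -0.72 for the licensing list and -0.33 for the mitotic list, the same direction as in the Cre-treated pair. There 28 licensing genes were at least 1.5-fold lower, as were 3.73% of all genes, and 11 were so in both pairs. The share of all genes lower in both pairs at that fold was not counted.

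Lists related to replication had smaller medians. Of 38 DNA damage response and repair genes, 4 were at least 1.5-fold lower, FANCB, BARD1, LIG1 and EXO1, with a median of -0.16. FANCB, of the Fanconi anaemia core complex, differed by -1.21. Of 29 DNA and histone methylation genes, 5 were at least 1.5-fold lower, with a median of -0.18: UHRF1, the histone H3 lysine 9 methyltransferases SUV39H2 (-0.96) and SUV39H1 (-0.61), the demethylating enzyme TET1 (-0.79) and the methyltransferase DNMT3B (-0.68). Of 25 CDK inhibitors and p53 target genes, 3 were at least 1.5-fold higher and 1 lower, with a median of 0.12. The inhibitors CDKN2B and CDKN1B differed by 0.74 and 0.71. MYC and ribosome biogenesis genes had 1 of 34 at least 1.5-fold higher and a median of -0.02. The medians of 16 histone and 27 immediate early genes were -0.26 and 0.06, with FOS at 0.87 and HBEGF, a growth factor, at 0.88. The probe sets of HBEGF ranged from -0.23 to 1.76.

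Interferon-stimulated genes code for antiviral proteins that cells make after interferon binds its receptor. Of 58 measured, 45 were lower in LhTERTL/cre+, 14 at least 1.5-fold and 6 at least 2-fold, while 1 was at least 1.5-fold higher, and the median difference was -0.31. Of all 19775 genes 9237 were lower, 3.55% at least 1.5-fold and 1.18% at least 2-fold. HERC5, the ligase that attaches ISG15 to proteins, stood at -0.67 in LhTERTL/cre+, against 1.13 in mock/cre+, with 0.08 in LhTERTL and -0.08 in mock, a difference of -1.80 or 3.48-fold lower. Mock/cre+ alone was high. OASL, which strengthens RIG-I signalling, stood at -0.89 in LhTERTL/cre+, against 0.56 in mock/cre+, with -0.10 in LhTERTL and 0.10 in mock, a difference of -1.45, with LhTERTL/cre+ the lowest array and mock/cre+ the highest. IFIT1, which binds viral RNA that lacks cap methylation, stood at -0.26 in LhTERTL/cre+, against 1.16 in mock/cre+, with -0.52 in LhTERTL and 0.26 in mock, a difference of -1.41, and IFI44 stood at -0.07 in LhTERTL/cre+, against 1.04 in mock/cre+, with -0.67 in LhTERTL and 0.07 in mock, a difference of -1.11. In both, mock/cre+ was highest and LhTERTL lowest. GBP1, a guanylate-binding protein, differed by -1.17, but its probe sets ranged from -1.79 to 0.24. SAMD9, an antiviral factor, crossed the pairs at -1.13 against 1.46 in LhTERTL minus mock. The member at least 1.5-fold higher was CMPK2, a mitochondrial nucleotide kinase named after its value was seen, at 0.89. Against mock, the list's median was -0.05 in LhTERTL/cre+ and 0.21 in mock/cre+. The list's median in LhTERTL minus mock was -0.03. Mock/cre+ was the outermost array in 34 of the 58 genes, a share close to the 9 of 15 housekeeping genes. The share over all genes was not counted.

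Cytosolic heat shock and chaperone genes, which heat shock factor 1 controls, were lower in 17 of 20. At least 1.5-fold lower were 8, at least 2-fold lower 4, and the median difference was -0.49. The shares of all genes at these folds were 3.55% and 1.18%. HSPB1, the small heat shock protein HSP27, stood at -0.86 in LhTERTL/cre+, against 0.86 in mock/cre+, with 0.95 in LhTERTL and -0.97 in mock, a difference of -1.72 or 3.28-fold lower. HSPA2, an HSP70 best known in testis, stood at 0.06 in LhTERTL/cre+, against 1.71 in mock/cre+, with -0.06 in LhTERTL and -0.38 in mock, a difference of -1.64. HSPB1 was high in mock/cre+ and LhTERTL alike, and HSPA2 in mock/cre+ alone. The nucleotide exchange factors HSPH1 and BAG3 differed by -1.06 and -1.01, and the co-chaperones DNAJA1 and DNAJB1 by -0.94 and -0.91. Against mock, the list's median was 0.07 in LhTERTL/cre+ and 0.48 in mock/cre+. In LhTERTL minus mock the list's median was 0.23. Without shared probe sets, the median in the Cre-treated pair was -0.26.

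Of 33 WNT pathway genes, 7 were at least 1.5-fold lower, as were 3.55% of all genes, 4 at least 2-fold lower and 0 higher, with a median of -0.11. The receptor FZD7 stood at -0.96 in LhTERTL/cre+, against 0.96 in mock/cre+, with 1.15 in LhTERTL and -1.01 in mock, a difference of -1.92, and the ligases that remove such receptors, ZNRF3 and RNF43, differed by -1.73 and -1.28. The repressor TCF7L1 differed by -1.27. Of 29 TGF-beta and BMP response genes, 5 were at least 1.5-fold lower and 1 higher, with a median of -0.16. The BMP antagonist NOG stood at -0.26 in LhTERTL/cre+, against 1.55 in mock/cre+, with 0.13 in LhTERTL and -0.13 in mock, a difference of -1.81, and ID3, a direct BMP target, stood at -0.06 in LhTERTL/cre+, against 1.65 in mock/cre+, with 0.06 in LhTERTL and -0.11 in mock, a difference of -1.71. In NOG and ID3 mock/cre+ alone was high. The co-receptor TGFBR3 and the ligand BMP2 differed by -1.40 and -1.09. Among 32 inflammatory cytokines and chemokines, 3 were at least 1.5-fold higher and 4 lower, with a median of -0.06. IL6 stood at -1.60 in LhTERTL/cre+, against 0.11 in mock/cre+, with 2.27 in LhTERTL and -0.11 in mock, a difference of -1.71, and IL24 differed by -1.89. IL1B went the other way: it stood at 1.93 in LhTERTL/cre+, against 0.52 in mock/cre+, with -0.52 in LhTERTL and -0.80 in mock, a difference of 1.41, with LhTERTL/cre+ alone high. IL33, an alarmin held in the nucleus, differed by 1.11. Complement gave 2 higher and 2 lower of 17, with a median of -0.05, from C5 at 1.18 to C3 at -1.04.

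The epithelial identity of PC-3 was examined with lists of junction genes, keratins and lineage markers, whose levels cannot be read from centred values. Of 36 epithelial junction and identity genes, 8 were at least 1.5-fold lower and 1 higher, with a median of -0.22 and 0 past 2-fold. GRHL2, a factor that sustains epithelial genes, stood at -0.31 in LhTERTL/cre+, against 0.65 in mock/cre+, with 0.31 in LhTERTL, a difference of -0.96. CD24, a surface glycoprotein, stood at -0.44 in LhTERTL/cre+, against 0.44 in mock/cre+, with 1.43 in LhTERTL and -1.36 in mock, a difference of -0.87. GRHL2 was highest in mock/cre+ and CD24 in LhTERTL, and mock was the lowest array for both. CDH1, E-cadherin, differed by -0.76, with probe sets from -1.68 to 0.15, EPCAM by -0.72 and the tight junction gene CLDN1 by 0.93. The list's median in LhTERTL minus mock was 0.29. Keratins (16) had a median of 0.08 with 0 past 1.5-fold in either direction, and 33 mesenchymal genes a median of -0.10 with 2 at least 1.5-fold lower. Prostate luminal genes (19) and basal genes (12) had medians of 0.07 and 0.03. The luminal list had 2 at least 1.5-fold lower, with the metalloreductase STEAP4 at -1.19, the mean of probe sets at 0.11 and -2.49. The basal list had 1, the connexin GJB2, which stood at -0.86 in LhTERTL/cre+, against 1.24 in mock/cre+, with 0.86 in LhTERTL and -1.13 in mock, a difference of -2.10. Neuroendocrine genes (14) had a median of 0.02, with SCG5, a granule protein, at -1.07. Among 17 stem cell related genes the median was -0.25 and SOX9 stood out beside ALDH1A1 and CD24 at -0.93.

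Of 39 extracellular matrix genes, 4 were at least 1.5-fold lower and 0 higher, with a median of -0.08. The fibulin EFEMP1 differed by -1.86 and SPARC, which binds collagen, by -1.14. The probe sets of SPP1, osteopontin, ranged from -2.17 to 0.17. Integrins (14) had a median of -0.03 and 0 past 1.5-fold. Of 11 plasminogen activation genes, 1 was at least 1.5-fold higher and 2 lower, with a median of -0.18. Of 18 S100 proteins and lipocalin 2, 1 was higher and 2 lower, with a median of -0.10: S100P at 1.08, and S100A9, a subunit of calprotectin, at -1.27. HLA class II genes gave 2 of 15 at least 1.5-fold lower and a median of -0.000593, with the loading factor HLA-DMA at -1.52. Autophagy and lysosome genes gave 3 of 31 higher and 0 lower, with a median of 0.13. Hypoxia and glycolysis genes (39), mitochondrial respiratory chain genes (31) and metallothioneins (8) had medians of -0.06, 0.02 and -0.08, with P4HA2 the only one of these past 1.5-fold, at -0.68. Markers of cells that a PC-3 culture should lack stayed within 1.5-fold in every gene, with medians of 0.08 for 18 leukocyte, -0.04 for 11 fibroblast and 0.02 for 12 endothelial genes. The 15 housekeeping genes did so too, with a median of 0.01.

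**Figure D4:**
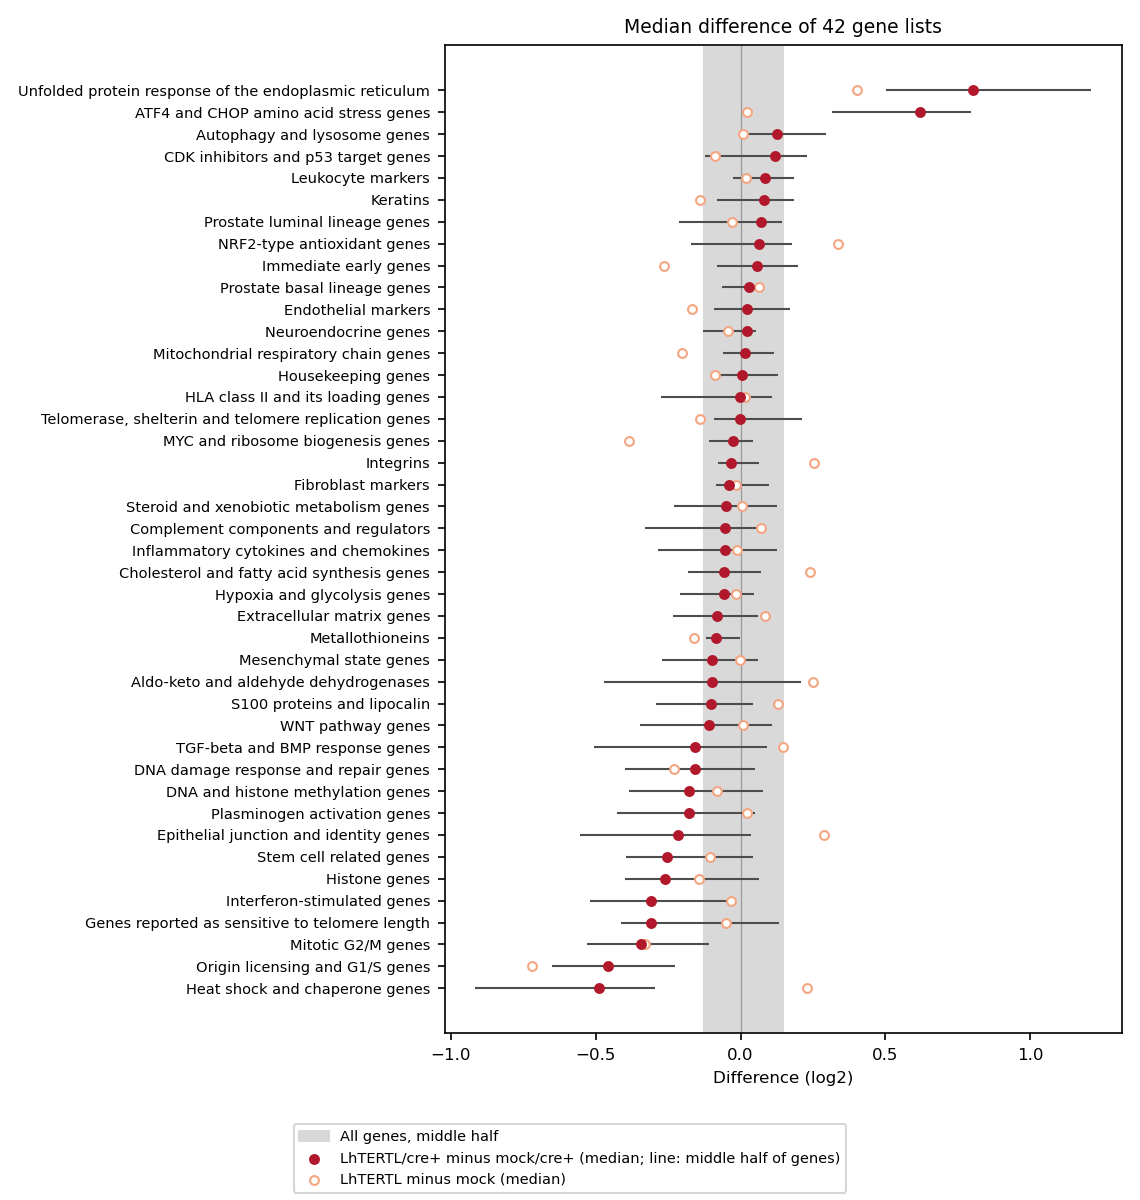
Median log2 difference (horizontal axis) of 42 gene lists in LhTERTL/cre+ minus mock/cre+ (filled points, with a line from the lower to the upper quartile of the genes) and in LhTERTL minus mock (open points); the grey band holds the quartiles of all genes. The unfolded protein response (0.80) and ATF4 and CHOP (0.62) lists stand at the top, and the heat shock (-0.49) and licensing (-0.46) lists at the bottom.

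Genes that act at telomeres differed little between the long-telomere and short-telomere lines. Of 29 telomerase, shelterin and telomere replication genes, 14 were higher and 15 lower, with a median of -0.00192. The largest difference, and the only one past 1.5-fold, was TERF2IP, which codes for the shelterin subunit RAP1. It stood at 0.17 in LhTERTL/cre+, against -0.42 in mock/cre+, with -0.17 in LhTERTL and 0.32 in mock, a difference of 0.59. Next in size was DCLRE1B, the nuclease Apollo that trims telomere ends, which differed by -0.51, with probe sets at -0.75 and -0.26. ZBTB48, which binds telomere repeats, differed by 0.36 and the tankyrase TNKS2 by 0.33. ACD, the shelterin subunit TPP1 that recruits telomerase, differed by 0.31, and CTC1, of the complex that ends telomere extension, by 0.31. The remaining shelterin genes were looked up whatever their value: TERF2 differed by 0.21, TINF2 by 0.17, POT1 by 0.16 and TERF1 by -0.22. Of 7 genes reported as sensitive to telomere length, 3 were higher and 4 lower, 0 passed 1.5-fold, and the median was -0.31. That median depended on the summary and the reference: it was -0.0258 with a gene as the median of its probe sets, -0.14 without shared probe sets, -0.14 with the mean of both short-telomere arrays as reference and -0.16 against mock. DSP, desmoplakin, differed by -0.57, C1S, a complement protease, by -0.50, ISG15 by -0.31 and SORBS2, a cytoskeletal adaptor, by -0.32. SORBS2 has 10 probe sets that ranged from -2.22 to 0.19. BET1L, of Golgi transport, and AKAP17A, a splicing regulator, differed by 0.24 and 0.21.

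Genes near chromosome ends were compared by gene order alone. Among the outermost 10 measured genes of each of 41 ends (410 genes), 9 (2.20%) were at least 1.5-fold higher and 9 (2.20%) at least 1.5-fold lower, with a median of 0.05. Over all 19690 mapped genes the shares were 1.88% higher and 3.54% lower, with a median of 0.01. With the outermost 50 genes per end (2050 genes), 1.85% were higher and 2.63% lower, and the median was 0.03. Of the outermost 10, 0 were at least 2-fold higher and 4 (0.976%) at least 2-fold lower, a share below the 1.18% of all genes: DMRT1, a sex-determination factor, at -2.14, RFLNB at -1.52, FOXQ1, a forkhead factor, at -1.24, and VLDLR. They were named after their values were seen.

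**Figure D5:**
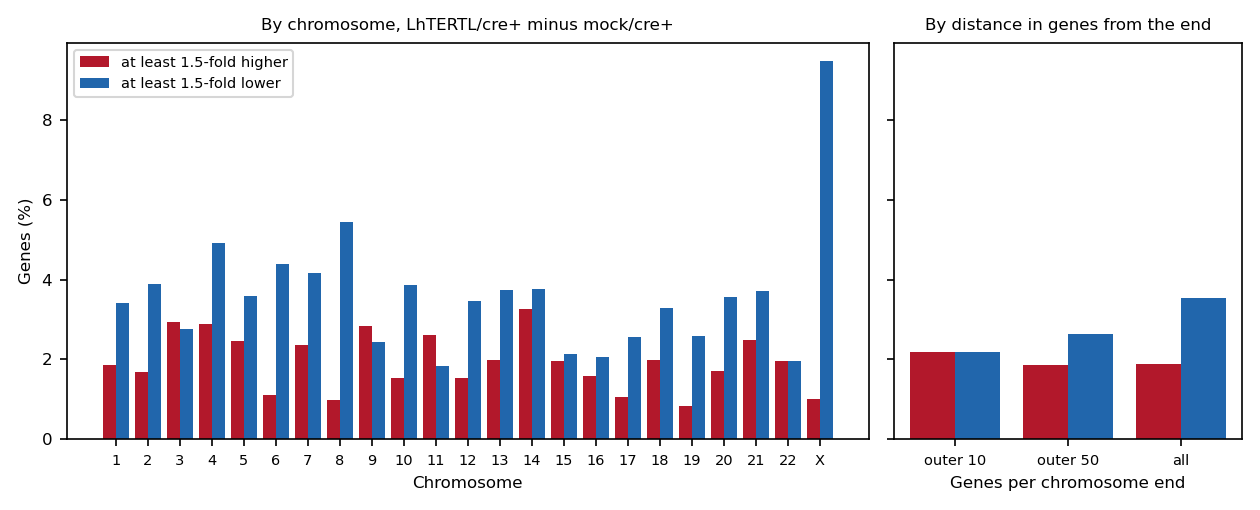
Share of genes (vertical axis, percent) at least 1.5-fold higher (red) or lower (blue) in LhTERTL/cre+ than in mock/cre+, by chromosome on the left and by the number of genes counted from each chromosome end on the right. On the X chromosome 9.48% of genes were lower, and near the ends the shares were 2.20% each way for the outermost 10 genes.

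The authors also deposited a list of probe sets as higher with long telomeres and a list as lower. The values of the higher list match the series table as headed, and those of the lower list match it only if its columns for LhTERTL and mock/cre+ are exchanged, which held for every probe set within 1e-05. The arrays are named here by the series table, in which TERT is high only under the heading LhTERTL. Under the lower list's headings that array would be called mock/cre+, so every value given for mock/cre+ rests on the series table's headings. In LhTERTL/cre+ minus mock/cre+ every probe set of the higher list was higher, by a median of 0.67, and every one of the lower list was lower, by a median of -0.64. The sizes were moderate: 26 probe sets of the higher list and 15 of the lower list were 2-fold apart. They make up 11.3% of the 231 probe sets at least 2-fold higher and 2.34% of the 640 at least 2-fold lower. The sources used here do not give how the lists were chosen, and a choice on these arrays would fix their direction.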

How the data were processed

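Total RNA from 4 PC-3 lines was measured on 1 array each, and groups were taken from the labels. The deposited log2 values come from RMA, per the submitters' processing notes, a method that corrects background, equalises the arrays' distributions and summarises probes per probe set; the sources used here do not give its version. Row medians over the arrays were 0 within 1e-05: rows had been centred, which hides levels and prevents a filter on low values; the base of 2 and the direction were taken as such. Differences are unadjusted. GEO's platform annotation gave 1 symbol to 41091 of 54613 probe sets, several to 1801 and none to 11721; 41037 matched RefSeq (GRCh38.p14) by Entrez number. A gene is the mean of its probe sets (10523 genes had several).

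Genes were named by rule: TERT, the 15 highest and 15 lowest whose probe sets share a sign, up to 6 members of largest difference in each of 42 lists, and genes 2-fold apart the same way in both pairs. The comparison, members and lists were chosen with earlier results of these data known. Alternatives were a subtracted median, other gene summaries, no shared probe sets and other short-telomere references. The counting was tested on simulated data. The tools were pandas 2.3.3 and numpy 2.4.6 under Python 3.11.15, with matplotlib 3.10.9 for plots.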

Additional observations from a re-analysis of the deposited data

Results flagged for a closer look

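The Cre-treated pair and the pair without Cre differ in telomere length in the same direction, yet some results were of opposite sign in them; with 1 array a side the difference between the pairs was not tested. Among the lists, 2 had medians of opposite sign and at least 0.2 in size in both pairs: heat shock and chaperone genes had a median of -0.49 in LhTERTL/cre+ minus mock/cre+ and 0.23 in LhTERTL minus mock, and epithelial junction and identity genes -0.22 and 0.29. Among the genes named by rule or in the text, 14 were at least 4-fold apart in both pairs and in opposite directions. In LhTERTL/cre+ minus mock/cre+ the values were -4.37 for CSTA, -3.87 for RAI2, -3.85 for COXFA4L3, -3.74 for ZIC2, -3.71 for RTN1, -3.70 for CA2 and -3.59 for CYP1B1. They were -2.89 for SLC16A14, -2.63 for LINC00992, -2.57 for RCAN2, -2.43 for LIPG, -2.12 for BEX4, -2.40 for AKR1B10 and -2.32 for NME5. In LhTERTL minus mock the 14 genes ranged from 2.73 for CA2 to 5.77 for CYP1B1. The named genes include the 15 lowest by the first of these differences, and genes outside them were not searched. Some of those also met the rule, among them RNF128 (-2.27 and 2.05) and IGDCC4 (-2.06 and 2.77). The share over all genes was not counted.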

How the results depend on the processing

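The short-telomere reference moved the results most. With the mean of both short-telomere arrays as reference, 21 genes were at least 2-fold higher and 49 lower, and 53 probe sets higher and 165 lower. The other reference, mock alone, was chosen after seeing the data. Against it, 62 genes were at least 2-fold higher and 24 lower, and 193 probe sets higher and 101 lower, so more were higher than lower. List medians with these references, in that order, were 0.32 and -0.12 for the unfolded protein response, 0.19 and -0.17 for ATF4 and CHOP, 0.00751 and 0.47 for licensing and G1/S, -0.0469 and 0.22 for mitotic, -0.15 and -0.047 for interferon-stimulated, -0.21 and 0.0664 for heat shock, 0.0761 and 0.16 for aldo-keto and aldehyde dehydrogenase, and 0.0312 and 0.15 for DNA damage genes. Among list medians of at least 0.1 in size, the sign against mock alone also turned for autophagy (-0.0696) and CDK inhibitor and p53 target genes (-0.0627). It turned as well for DNA and histone methylation (0.00792) and plasminogen genes (0.0219). Smaller medians turned too, among them extracellular matrix (0.21) and hypoxia and glycolysis genes (0.13). Of 128 named genes at least 1.5-fold apart, 73 turned against mock alone. CD24 (0.0254) and MCM10 (0.0414) turned with the mean of both. Taking for each gene its probe set of highest SD gave 138 genes higher and 455 lower, and 0.00285 for aldo-keto genes. Without shared probe sets the values were -0.26 for heat shock, 0.0786 for aldo-keto genes and 0.48 for AKR1C2. The cause of these changes was not tested. Subtracting the median difference (0.01) changed no count by over 1.5 times, and among list medians turned the sign of housekeeping genes (-0.0093).

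A filter on low values could not be run on centred rows, so genes near background are included. No paired analysis was possible because each group has 1 array. Precision is limited by the number of arrays, and no error can be given for any difference.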

Other observations

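The X chromosome was singled out after its values were seen. Of its 696 measured genes, 66 (9.48%) were at least 1.5-fold lower in LhTERTL/cre+ than in mock/cre+, where 3.54% of all mapped genes were, and 7 (1.01%) were higher. Of the 66, 56 were at least 1.5-fold above mock in mock/cre+, and 30 were at least 1.5-fold above mock in LhTERTL. The 66 were chosen by their difference from mock/cre+, which favours high values in that array. The same counts over the lower genes of all chromosomes were not made. Against mock, 1.58% of X genes were at least 1.5-fold higher in LhTERTL/cre+, where 1.67% of all mapped genes were. In mock/cre+ the shares were 11.6% on X and 5.96% of all, and in LhTERTL 9.91% on X and 5.74% of all. The BEX genes, a cluster of small adaptor proteins on X, gave 4 of 5 at least 1.5-fold lower, and the related TCEAL genes 1 of 7. BEX4 stood at -1.06 in LhTERTL/cre+, against 1.06 in mock/cre+, with 3.05 in LhTERTL and -1.51 in mock, a difference of -2.12. BEX2, BEX5 and BEX3 differed by -0.86, -0.73 and -0.68, and BEX1 by 0.16.

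A pair of genes just outside the lowest 15, also chosen after their values were seen, were high in mock/cre+ alone. BCL2A1, a BCL2 family survival protein and NF-kappaB target, stood at 0.28 in LhTERTL/cre+, against 2.56 in mock/cre+, with -0.58 in LhTERTL and -0.28 in mock, a difference of -2.28. SERPINB3, the squamous cell carcinoma antigen, stood at -0.06 in LhTERTL/cre+, against 2.12 in mock/cre+, with 0.03 in LhTERTL and -0.04 in mock, a difference of -2.18.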
